A study of Mus musculus with 77 samples.

Results

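Iron-regulatory protein 1 (IRP1), the product of Aco1, is a cytosolic protein that carries an iron-sulphur cluster when iron is plentiful and then works as an aconitase. Without the cluster it binds iron-responsive elements (IREs), short RNA hairpins. Binding to an IRE in the 5′ UTR keeps ribosomes from the coding sequence, as in the ferritin mRNAs, whereas binding to IREs in the 3′ UTR protects an mRNA from decay, as in the transferrin receptor mRNA. The liver stores iron, makes the iron hormone hepcidin and expresses both IRP1 and its relative IRP2, the product of Ireb2.

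The comparison addressed what the absence of IRP1 did to hepatic RNA and to its translation in the light phase. Livers of adult male mice on the C57BL/6J background, aged 12 to 24 weeks, were taken at ZT5, 5 h after lights on. Of each group 3 mice were used, wild-type animals of the same line (Aco1 +/+) and whole-body knockouts (Aco1 -/-, allele Aco1 tm1.1Mwh), all kept under a light-dark cycle with free access to food. All samples labelled with the Aco1 line and ZT5 were taken, which were 21 of the 77 samples of the series, 6 of its 24 livers and 12 of its 48 libraries. From each liver, ribosome-protected fragments (RPF, the mRNA pieces that ribosomes shield from RNase I) and total RNA were sequenced, and the runs of a library were summed. The remaining livers of the series belong to the same line at ZT12 and to an Ireb2 line. Since the allele is missing from the whole body, differences in liver can come from other organs, and a whole liver holds several cell types.

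Coding-sequence (CDS) totals per library ran from 1271060 to 3993492 counts for RNA and from 2448915 to 8738063 for RPF, and wild-type replicate 3 was the shallowest in both. RPF reads lay mainly in the CDS, 91.9% or more per library, with 1.92% to 3.19% in 5′ UTRs. Hepatocyte markers summed to between 100720 and 131698 CPM of RNA (CDS counts per 1000000 CDS counts of the library, scaled) in every liver, so the labelled tissue was borne out by its defining genes. The 10696 genes with enough counts, of 25266 listed, were tested with edgeR's quasi-likelihood test, with Benjamini-Hochberg adjustment over all of them. Livers of unlike genotype differed about as much as livers of the same genotype. The median absolute log2 difference between livers was 0.293 within and 0.285 between genotypes for RNA, and 0.316 within and 0.258 between for RPF.

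Aco1 itself was the check of the labels and the gene with the smallest p in RPF and TE, although genes with wider intervals had larger fold changes. The files list it as ENSMUSG00000028405, on chromosome 4 from 40143265 to 40199009 (GRCm38.p6). Its RPF level was 397.0, 347.1 and 485.7 CPM in the wild types and 74.8, 81.2 and 83.4 CPM in the knockouts (410.0 ± 70.2 against 79.8 ± 4.46, SD, n = 3). It fell by 2.36 on the log2 scale (SE 0.154), which is 5.13-fold, with an adjusted p of 7.07e-08 in edgeR. The groups were far apart, and the knockouts were close to each other.

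Aco1 RNA differed less, with 245, 239 and 249.7 CPM in the wild types and 114, 157 and 167 CPM in the knockouts. This difference of -0.74 (log2, SE 0.148) separated the groups but did not pass the adjustment, with an edgeR adjusted p of 0.175. Translation efficiency (TE), the log2 ratio of RPF to RNA CPM in the same liver, was 0.70, 0.54 and 0.96 in the wild types and -0.61, -0.95 and -1.0 in the knockouts. TE therefore fell by 1.6 (SE 0.146), and the edgeR adjusted p was 4.56e-09. The paper describes the knockout allele as having a disrupted reading frame while its mRNA is still made, with lower Aco1 TE in the knockouts. The 3′ UTR counts of the Aco1 RNA were lower as well, 70.3, 69.9 and 78.6 CPM in the wild types against 33.6, 46.5 and 55.6 CPM in the knockouts.

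The loss of footprints on Aco1 was uneven along the transcript. Of its footprints in the 5′ UTR and CDS together, 3.31%, 2.04% and 1.48% lay in the 5′ UTR in the wild types, and 10.1%, 6.46% and 6.25% in the knockouts. The share was 2.28% ± 0.938 against 7.61% ± 2.17 (SD, n = 3 each, exact two-sided permutation p = 0.1, the smallest that 3 against 3 allow). The 5′ UTR footprints of Aco1 themselves were 13.6, 7.24 and 7.28 CPM against 8.42, 5.61 and 5.56 CPM, with overlapping groups. In RNA the 5′ UTR share was 7.41% ± 2.50 and 7.31% ± 1.90 (SD, n = 3). The relative Ireb2 showed no comparable shift, since its RPF level was 63.2, 67.9 and 56.9 CPM in the wild types and 55.8, 68.2 and 71.8 CPM in the knockouts. The 95% interval of the Ireb2 RPF difference ran from -0.28 to 0.37 on the log2 scale.

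**Figure D1:**
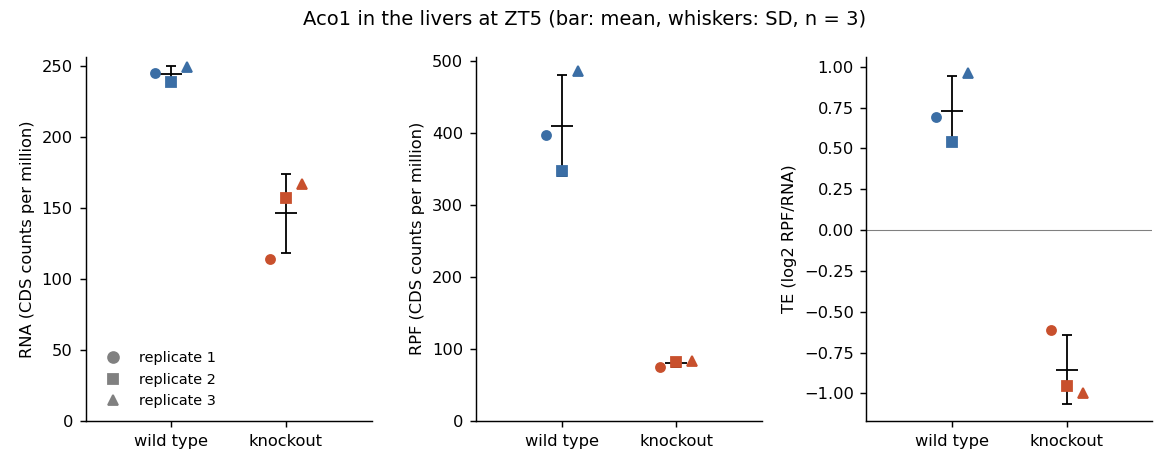
RNA and RPF (CPM of the CDS) and TE (log2 RPF/RNA) of Aco1 in single livers at ZT5 (points, 3 wild types and 3 knockouts, with bars for the mean and whiskers for the SD). RPF of Aco1 lies between 347.1 and 485.7 CPM in the wild types and between 74.8 and 83.4 CPM in the knockouts, and TE is above 0 in every wild type and below 0 in every knockout.

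Beyond Aco1 few genes were called. In RNA, none of the 10696 genes had an adjusted p under 0.05 (0%), where 399 genes had an unadjusted p below 0.05 and DESeq2 called only Aco1. With only the 6 livers at ZT5 in the fit, 8 genes passed in RNA, which were Abcd2, Cish, Hamp, Onecut1, Etnppl and the near-identical Mup1, Mup12 and Mup16. In RPF only Aco1 passed (0.00935%), and 298 genes had an unadjusted p below 0.05, while DESeq2 called Mup21 and Hamp as well. In TE only Aco1 passed (0.00935%), with 272 genes below the unadjusted threshold. Among 3323 genes with enough footprints in the 5′ UTR, none passed in edgeR or DESeq2 (0%), and 44 had an unadjusted p below 0.05 in edgeR.

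These counts come with wide intervals for many genes. The 95% interval of the knockout effect lay within a 2-fold change in either direction for 70.9% of genes in RNA, 76.7% in RPF and 60.1% in TE, but for 27.1% in the 5′ UTR. The median standard error was 0.256 in RNA, 0.23 in RPF and 0.313 in TE. Of the genes tested, 5.24% had all 3 knockouts above all 3 wild types in RNA and 4.15% had them below. The corresponding shares were 3.95% and 3.66% in RPF, 3.99% and 4.76% in TE, and 2.38% and 2.59% in 5′ UTR RPF. Beside Aco1, the next smallest edgeR adjusted p was 0.245 in RNA (Resf1), 0.793 in RPF (Mup21) and 1 in TE, so the genes below are described by their levels and intervals.

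The 6 known transcripts with an IRE in the 5′ UTR had higher mean TE in the knockouts in each case, while their RNA levels went either way. The median TE difference of the 6 was 0.41 (log2), beside -0.01 for all genes tested, and it was 0.47 without both replicate 3 livers. For 3 of the 6 all knockouts lay above all wild types in TE (3.99% of all genes did), but none passed the adjustment. The medians were 0.33 for RPF and 0.00 for RNA. The RNA median was 0.11 without knockout replicate 1 and -0.02 without knockout replicate 3. With so few genes the list is a description of its members.

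Slc40a1, the iron exporter ferroportin, had TE values of -0.13, 0.17 and 0.23 in the wild types and 0.45, 0.62 and 0.65 in the knockouts. All knockouts lay above all wild types, by 0.48 (log2, SE 0.147, 95% interval 0.19 to 0.78, edgeR adjusted p = 1). Its RPF level was 154, 143 and 263 CPM in the wild types against 288, 369 and 444 CPM in the knockouts, a difference of 0.98 (SE 0.393). Slc40a1 RNA was 168, 127 and 224 CPM against 212, 240.0 and 282 CPM, so the groups overlapped in RNA. Footprints in the 5′ UTR of Slc40a1 were 9.28, 6.31 and 8.19 CPM in the wild types and 12.8, 16.2 and 17.2 CPM in the knockouts. The 5′ UTR share of its footprints was nevertheless alike, 4.31% ± 1.34 and 4.07% ± 0.288 (SD, n = 3).

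The ferritin mRNAs, which encode the light and heavy chains of the iron storage shell, were more variable. Ftl1 RPF was 38.9, 96.3 and 54.1 CPM in the wild types and 139, 98.6 and 110.1 CPM in the knockouts, just short of overlap. The TE of Ftl1 was -2.47, -0.76 and -1.6 in the wild types and -0.94, -1.08 and -0.90 in the knockouts, with a 95% interval of the difference from -0.86 to 2.08. Wild-type livers thus spread over a wider TE range than the knockouts did. Footprints on the 5′ UTR of Ftl1 were 30.5, 22.6 and 17.7 CPM against 57.0, 80.9 and 32.0 CPM, a difference of 1.24 (SE 0.389) that did not pass the adjustment. Fth1 TE was -0.87, -0.28 and -0.38 in the wild types and -0.27, 0.34 and -0.18 in the knockouts (difference 0.47, SE 0.521). Fth1 RNA was alike in both groups, 939.8 ± 153.5 and 895 ± 140.3 CPM (SD, n = 3).

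Alas2, the erythroid enzyme of heme synthesis, had a TE of -0.35, 0.02 and -0.15 in the wild types and 0.15, 0.38 and 0.08 in the knockouts (difference 0.35, SE 0.165). Its RNA ran the other way in 2 livers, with 158, 139 and 172 CPM in the wild types and 105, 62.6 and 187 CPM in the knockouts. Erythroid marker RNA was lower in every knockout than in every wild type but did not follow Alas2 RNA liver by liver, at 44.4, 75.5 and 37.4 CPM summed over 6 listed genes in the wild types and 14.7, 8.76 and 22.0 CPM in the knockouts (52.4 ± 20.3 against 15.2 ± 6.63, SD, n = 3, exact permutation p = 0.1). All 5 erythroid markers that could be tested were below 0 in RNA, with a median of -1.77. The part of these markers in the Alas2 values was not tested, and in whole livers fewer cells of a type and less RNA per cell cannot be told apart. Among these markers are globin genes with near-identical copies, whose reads the counting may have split. Summed markers of Kupffer, endothelial, stellate and bile duct cells and of lymphocytes overlapped between the genotypes.

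Epas1, which encodes HIF2α, had TE values of 0.47, 0.55 and 1.02 in the wild types and 0.78, 0.61 and 0.79 in the knockouts. The groups overlapped, and the Epas1 TE difference had a 95% interval from -0.27 to 0.39.

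Both transcripts with IREs in the 3′ UTR had differences below 0 in RNA and RPF, on few reads. Neither had an unadjusted edgeR p below 0.05 in RNA, RPF or TE. Tfrc, the transferrin receptor that takes iron into cells, had RNA levels of 14.9, 16.3 and 12.7 CPM in the wild types and 8.82, 7.30 and 9.88 CPM in the knockouts (difference -0.79, SE 0.607). Tfrc RPF was 20.0, 12.1 and 12.7 CPM against 8.15, 7.97 and 6.95 CPM (difference -0.98, SE 0.566). The groups did not overlap in either of these CDS measures, single libraries held as few as 20 Tfrc counts, and the intervals included 0. In the 3′ UTR of Tfrc the RNA groups did overlap. Levels there were 21.5, 14.1 and 5.7 CPM in the wild types and 10.1, 7.72 and 6.21 CPM in the knockouts (exact permutation p = 0.4). Slc11a2, the iron importer DMT1, had RPF levels of 24.1, 20.2 and 21.4 CPM in the wild types and 16.7, 14.2 and 19.7 CPM in the knockouts (difference -0.38, SE 0.226), and its RNA groups overlapped. TE overlapped between the groups for both, with 95% intervals of the difference from -0.78 to 0.48 for Tfrc and from -0.60 to 0.51 for Slc11a2.

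**Figure D2:**
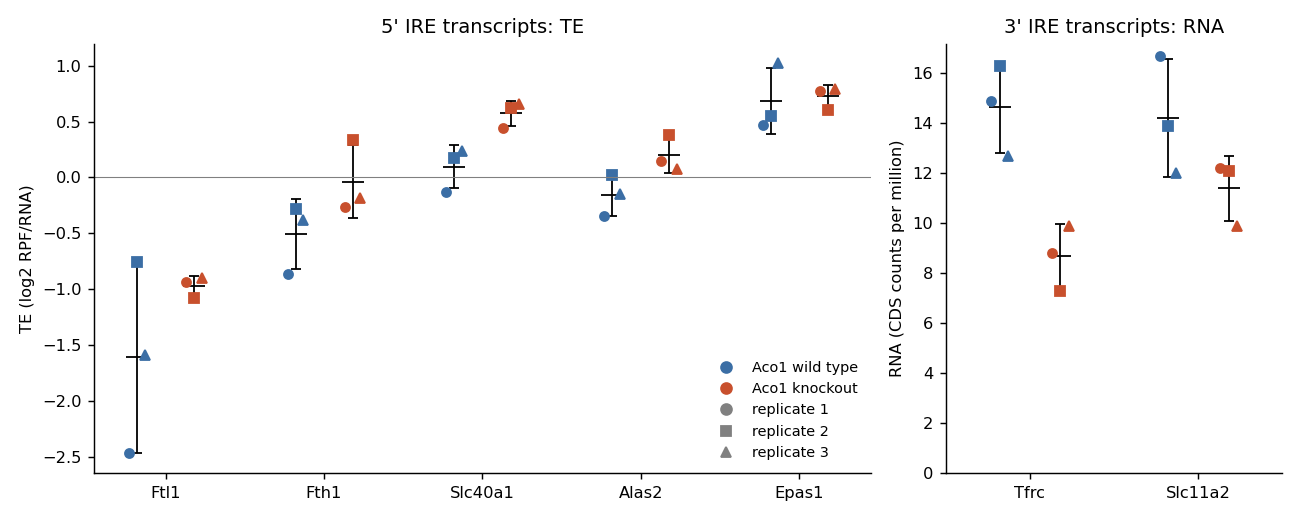
TE (log2 RPF/RNA) of 5 transcripts with an IRE in the 5′ UTR and RNA (CPM of the CDS) of Tfrc and Slc11a2 in single livers at ZT5 (points, 3 livers a group, with bars for the mean and whiskers for the SD). TE of Slc40a1 is above 0.4 in the 3 knockouts and below 0.24 in the 3 wild types, while Ftl1 TE spreads from -2.47 to -0.76 among the wild types.

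Of 34 transcripts with predicted IRE-like hairpins, none passed the test, and their medians were 0.01 in RNA, 0.07 in RPF and -0.01 in TE. Cyp7a1, the rate-limiting enzyme of bile acid synthesis, stood highest in RPF, with 73.4, 75.2 and 129 CPM in the wild types and 228, 143 and 143 CPM in the knockouts (difference 0.91, SE 0.279). Its RNA was 87.4, 82.1 and 116 CPM against 198.8, 121.7 and 131.2 CPM (0.67, SE 0.21), so the groups separated in both measures.

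Hepcidin, the liver hormone that removes ferroportin from cell surfaces and so limits iron entry into blood, was higher in every knockout. It is encoded by Hamp, whose transcription answers to iron through bone morphogenetic proteins (BMPs) and SMAD factors. Hamp RNA was 568, 475 and 485 CPM in the wild types and 1523, 1437 and 806 CPM in the knockouts, a difference of 1.30 (log2, SE 0.39). Hamp RPF was 1634, 1204 and 1163 CPM against 4040, 4018 and 1726 CPM, a difference of 1.29 (SE 0.312). The groups did not overlap in either measure, knockout replicate 3 stood nearest the wild types, and the edgeR adjusted p was 1 in both. TE of Hamp was alike, with an interval from -0.37 to 0.28.

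The Hamp calls depended on which livers entered the fit. Hamp passed in RNA with only the 6 livers at ZT5 and without ZT12 knockout replicate 3, and in RPF with DESeq2 and without ZT5 knockout replicate 3. The copy Hamp2 varied widely between livers of the same genotype, with RNA levels of 16.7, 15.5 and 4.44 CPM in the wild types and 33.2, 75.3 and 2.54 CPM in the knockouts. Both copies are alike in sequence, so that reads could be split between them by the counting, and the Hamp2 values are uncertain. The effect on Hamp RPF at ZT5 exceeded that at ZT12 by 1.2 (log2, SE 0.436), a difference that did not pass the adjustment (edgeR adjusted p = 0.881).

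The promoters of the copies are shown because Hamp and Hamp2 differ in the letters known as the BMP-response element of the hepcidin promoter. The windows of 30 bases are read from the RefSeq promoter table (GRCm38.p6), on the minus strand of chromosome 7, chr7:30944121-30944150 for Hamp and chr7:30924270-30924299 for Hamp2. Capitals mark the 6 bases of that element in Hamp and the matching bases in Hamp2.
Hamp: tcccgcctgtttGGCGCCactattttcttg
Hamp2: tcccgcctgtttGGCACCactatcttcttg
Of the 30 bases, 28 were identical. The letters GGCGCC, which read alike on both strands, were found in 3892 of 32817 promoter windows (11.9%), so a match is a description of the sequence and not of a bound site.

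The list of hepcidin and BMP-SMAD genes, which includes Hamp and Hamp2 themselves, leaned to higher RPF. Of 20 tested members, 17 had an RPF difference above 0 and the median was 0.28, beside 0.01 for all genes, but none passed. For 4 of the 20 the RPF groups did not overlap (a direction in which 3.95% of all genes did not), and the RNA median was 0.08 (0.185 without knockout replicate 1 and 0.04 without knockout replicate 3). Without both replicate 3 livers the RPF median was 0.26, with 14 of 20 above 0. Bmp6, the BMP ligand that iron induces in liver endothelium, had RNA levels of 3.51, 5.07 and 4.44 CPM in the wild types and 8.40, 10.9 and 8.47 CPM in the knockouts (difference 1.07, SE 0.332). Atoh8, a transcription factor that answers to BMP, had RPF levels of 7.90, 11.7 and 14.1 CPM against 33.7, 25.4 and 17.0 CPM (1.26, SE 0.343). Id1, another BMP target, overlapped between the groups in RPF, at 10.5, 17.1 and 20.9 CPM against 28.3, 35.7 and 18.1 CPM. Tmprss6, the protease that dampens BMP signalling, had RPF levels of 213, 231 and 224 CPM in the wild types and 252, 243 and 249 CPM in the knockouts, a small but separated difference of 0.16 (SE 0.124).

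**Figure D3:**
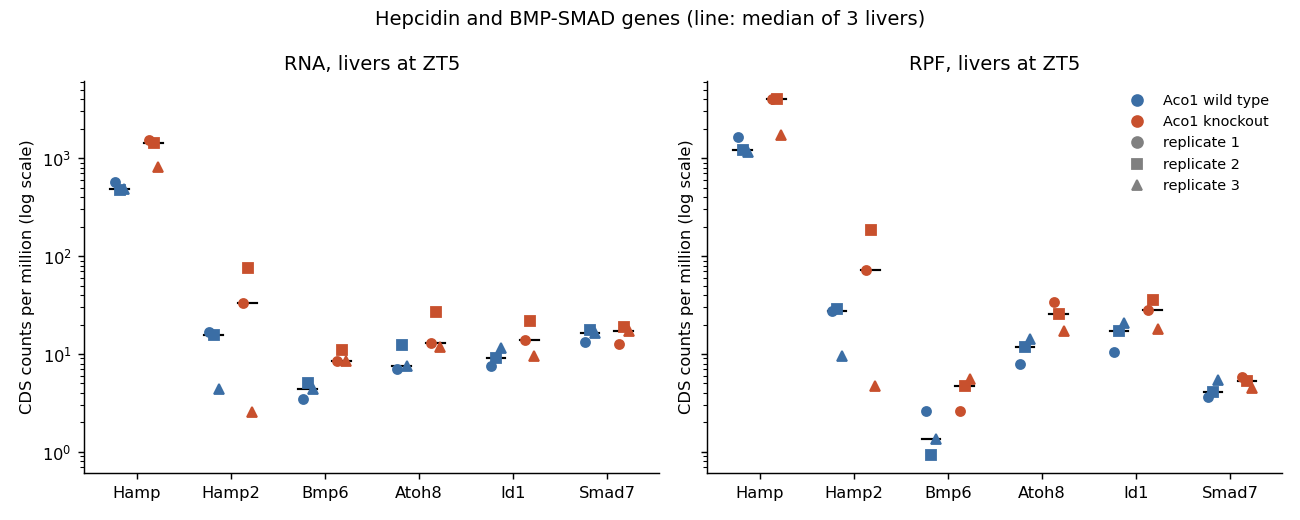
RNA and RPF (CPM of the CDS, log axis) of 6 hepcidin and BMP-SMAD genes in single livers at ZT5 (points, 3 wild types and 3 knockouts, with lines at the group medians). Hamp RPF is 1163 to 1634 CPM in the wild types and 1726 to 4040 CPM in the knockouts, with knockout replicate 3 lowest.

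Other genes of iron and heme handling had medians near 0 in RNA and RPF. Among 20 genes of iron uptake, storage and export the medians were 0.07 in RNA and 0.01 in RPF. Cp, the ferroxidase ceruloplasmin, had RNA levels of 1331, 1325 and 1512 CPM in the wild types and 1696, 1767 and 1581 CPM in the knockouts (0.28, SE 0.134). Among 18 genes of heme synthesis and breakdown the medians were 0.04 in RNA and -0.02 in RPF. In TE 6 were above 0 and 12 below, with a median of -0.12, and none passed in any measure. There were 3 above and 15 below without knockout replicate 1. Without knockout replicate 3 there were 7 above and 11 below, with a TE median of -0.07. The RNA median was 0.01 without knockout replicate 1 and 0.08 without wild-type replicate 3, and the RPF median was -0.07 and -0.05 in these omissions. Alas1, the first enzyme of hepatic heme synthesis, was low in the knockouts, with RNA of 423, 386 and 476 CPM in the wild types and 122.7, 242 and 66.9 CPM in the knockouts (difference -1.56, SE 0.679). Alas1 RPF was 633, 626 and 728 CPM against 97.5, 419.6 and 117 CPM, again without overlap. Hmox1, which breaks heme down, had RNA of 1.76, 4.80 and 12.7 CPM against 18.9, 14.6 and 12.4 CPM (1.39, SE 0.427), so knockout replicate 3 lay among the wild types.

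Genes of the hypoxia pathway, regulators and targets of the HIF factors, leaned to higher TE. Of 16 tested, 12 were above 0 and 4 below in TE, with a median of 0.17. All knockouts lay above all wild types for 3 of the 16, a direction in which 3.99% of all genes did, and none passed. Without knockout replicate 1 the TE median was 0.01, with 8 above and 8 below. In RNA 6 were above 0 and 10 below, with a median of -0.05 (-0.00 without knockout replicate 1, with 8 above and 8 below, and -0.02 without wild-type replicate 3). In RPF the median was 0.08, and it was 0.12 without wild-type replicate 3 and 0.05 without knockout replicate 3. Egln3, a prolyl hydroxylase that HIF induces, had RNA of 5.27, 4.80 and 9.51 CPM in the wild types and 10.9, 16.5 and 12.4 CPM in the knockouts (1.14, SE 0.318), while its TE difference was the lowest of the list. Egln3 TE was 1.33, 0.99 and 0.01 against 0.54, 0.13 and 0.01, with overlapping groups and a 95% interval of the difference from -1.37 to 0.10. Arnt, the partner subunit of the HIF proteins, had TE of -0.12, -0.07 and 0.20 against 0.53, 0.45 and 0.60 (0.54, SE 0.197). Irs2, the insulin receptor substrate, had RPF of 8.73, 16.2 and 27.3 CPM against 31.2, 27.7 and 31.4 CPM (0.91, SE 0.455). The groups did not overlap in these RNA, TE and RPF values, respectively, and none passed the adjustment.

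Since IRP1 is an aconitase with an iron-sulphur cluster, genes of cluster assembly and of the citrate cycle were described too. The 26 assembly genes had medians of -0.04, -0.04 and -0.07 for RNA, RPF and TE. Their RPF median was -0.21 without knockout replicate 1, -0.16 without wild-type replicate 3 and -0.01 without knockout replicate 3. The RNA median was -0.02 without knockout replicate 3, and the TE median was -0.12 and -0.11 without wild-type or knockout replicate 3. The 25 enzymes of the citrate cycle had medians of 0.02, 0.03 and 0.02. Sucla2, a subunit of succinyl-CoA synthetase, had TE of 0.35, 0.41 and 0.50 in the wild types and 0.01, 0.08 and 0.08 in the knockouts (difference -0.36, SE 0.163). The 19 clock genes had medians of -0.01, 0.10 and 0.10, which rested on single livers. Their RNA and RPF medians were -0.36 and -0.26 without knockout replicate 3, 0.14 and 0.21 without wild-type replicate 3, 0.15 and 0.17 without knockout replicate 1, and -0.22 and -0.30 without both replicate 3 livers. The 30 plasma protein genes, the main output of hepatocytes, had -0.00, -0.02 and -0.01.

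The 76 tested mRNAs of cytosolic ribosomal proteins had an RPF median of -0.21, with 12 above 0 and 63 below, where 5167 of all 10696 genes were below 0. None passed, and all knockouts lay below all wild types for 2 of the 76, beside 3.66% of all genes. The RNA median was -0.09 and the TE median -0.16. Single livers moved these medians either way. Without knockout replicate 1 the TE median was -0.00, with 38 above and 38 below 0, and the RPF median was -0.11. In RPF it was -0.14 without knockout replicate 3 and -0.33 without wild-type replicate 3, and in RNA -0.06 and -0.18 in the same omissions. The median deviation of these mRNAs from the mean of the livers was 0.06, 0.45 and -0.24 (log2 CPM, RPF) in wild types 1 to 3 and -0.18, 0.29 and -0.25 in the knockouts, so livers of both genotypes were high and low. These genes are short, with a median span of 3.17 kb against 24.6 kb for all genes. With the length trend removed the medians were -0.15 in RPF, -0.15 in TE and -0.04 in RNA. The 12 mitochondrial mRNAs had medians of 0.05, -0.17 and -0.24 for RNA, RPF and TE, and single livers moved them. The RPF median was -0.06 without knockout replicate 3 and -0.30 without knockout replicate 1, and the RNA median was 0.14 and -0.05 in the same omissions and -0.08 without wild-type replicate 3. The TE median was -0.16 without knockout replicate 3 and -0.22 without knockout replicate 1. The TE of mt-Atp8 was -3.39, -3.53 and -3.13 against -3.61, -3.59 and -3.67. The 22 acute-phase and stress genes had an RPF median of -0.31 and an RNA median of -0.13, with wild-type replicate 3 deviating upward by 0.72 in RPF. Without that liver the medians were -0.08 in RPF and 0.15 in RNA, and without both replicate 3 livers 0.02 and 0.25. They were -0.53 in RPF and -0.29 in RNA without knockout replicate 1, and -0.19 and -0.01 without knockout replicate 3.

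Genes outside the lists were taken by the smallest p among those whose groups did not overlap. In RNA the higher genes were led by Prlr, the prolactin receptor, at 33.8, 28.0 and 20.3 CPM in the wild types and 49.2, 74.9 and 36.4 CPM in the knockouts (0.96, SE 0.216). Sgk1, a kinase induced by glucocorticoids, was 15.8, 16.8 and 9.51 CPM against 29.0, 34.6 and 20.6 CPM in RNA and differed by 0.98 (SE 0.233) in RPF. Lower genes in RNA included Resf1, at 73.8, 50.1 and 75.4 CPM against 40.8, 39.0 and 27.4 CPM (-0.88, SE 0.189), and Lifr, the receptor of leukaemia inhibitory factor, at 693, 691 and 572 CPM against 358, 463 and 435 CPM (-0.64, SE 0.152). Hes6, a transcriptional repressor, was lower in RNA (-0.66) and RPF (-0.81), and the zinc-finger gene Zfp809 in RPF (-0.98, SE 0.234).

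In RPF the higher genes included Irs1, whose RPF level was 15.0, 18.7 and 23.7 CPM in the wild types and 27.6, 29.2 and 30.6 CPM in the knockouts (0.65, SE 0.185) while its RNA overlapped, at 37.1 ± 3.86 and 39.7 ± 2.04 CPM (SD, n = 3). Sik1, a salt-inducible kinase, was 18.4, 17.6 and 19.6 CPM against 43.2, 26.3 and 42.6 CPM (1.03, SE 0.287). In TE the higher genes included Klf11, a transcription factor, with -0.49, -0.26 and 0.47 against 1.60, 0.98 and 0.87 (1.2, SE 0.372). The lower ones included Sirt2, a deacetylase, with 1.48, 1.76 and 1.27 against 0.69, 0.88 and 0.76 (-0.78, SE 0.262). All edgeR adjusted p-values for these RPF and TE differences were 1.

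The remaining named genes with wide gaps between the groups were described one by one, and Cish, Onecut1 and Mup21 were chosen after their values were seen. Since such genes were picked for groups that do not overlap, the separation is not a result. Cish, a suppressor of cytokine signalling, had RNA of 5.71, 6.40 and 8.24 CPM in the wild types and 0.84, 0.84 and 0.56 CPM in the knockouts, and RPF of 30.9, 24.1 and 50.5 CPM against 5.11, 4.72 and 1.11 CPM. The Cish RNA difference was -3.09 (SE 0.962) and the edgeR adjusted p was 1, although Cish passed in RNA and RPF with only the 6 livers at ZT5 and in RNA without ZT12 knockout replicate 2. Bcl6, a transcriptional repressor, had RNA of 6.15, 3.20 and 8.24 CPM against 34.5, 10.0 and 51.6 CPM (2.55, SE 0.984). Socs2, of the same family as Cish, had RNA of 1.76, 6.13 and 2.54 CPM against 0.42, 1.25 and 0.28 CPM, at few counts.

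Onecut1, a hepatocyte transcription factor, had RNA of 29.9, 27.5 and 14.6 CPM in the wild types and 5.04, 10.6 and 4.80 CPM in the knockouts (-1.77, SE 1.02). Slc25a30, a mitochondrial carrier, had RNA of 54.5, 51.5 and 57.7 CPM against 12.2, 30.5 and 9.03 CPM (-1.6, SE 0.472), and passed in RNA without knockout replicate 2. Abcd2, a peroxisomal transporter of fatty acids, had RNA of 6.15, 9.33 and 12.0 CPM against 40.8, 22.1 and 27.9 CPM (1.72, SE 0.559). Mup21, a major urinary protein gene, had RPF of 235, 268 and 216 CPM against 54.5, 148.7 and 91.5 CPM (-1.30, SE 0.256), a value that is uncertain because the Mup genes are near-identical copies. Beside DESeq2, Mup21 passed in RPF without knockout replicate 2, and in RNA without knockout replicate 1 and with the first runs alone. At ZT12, Cish RNA varied within a genotype, at 3.22, 0.43 and 1.26 CPM in the wild types and 1.02, 15.0 and 1.63 CPM in the knockouts.

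**Figure D4:**
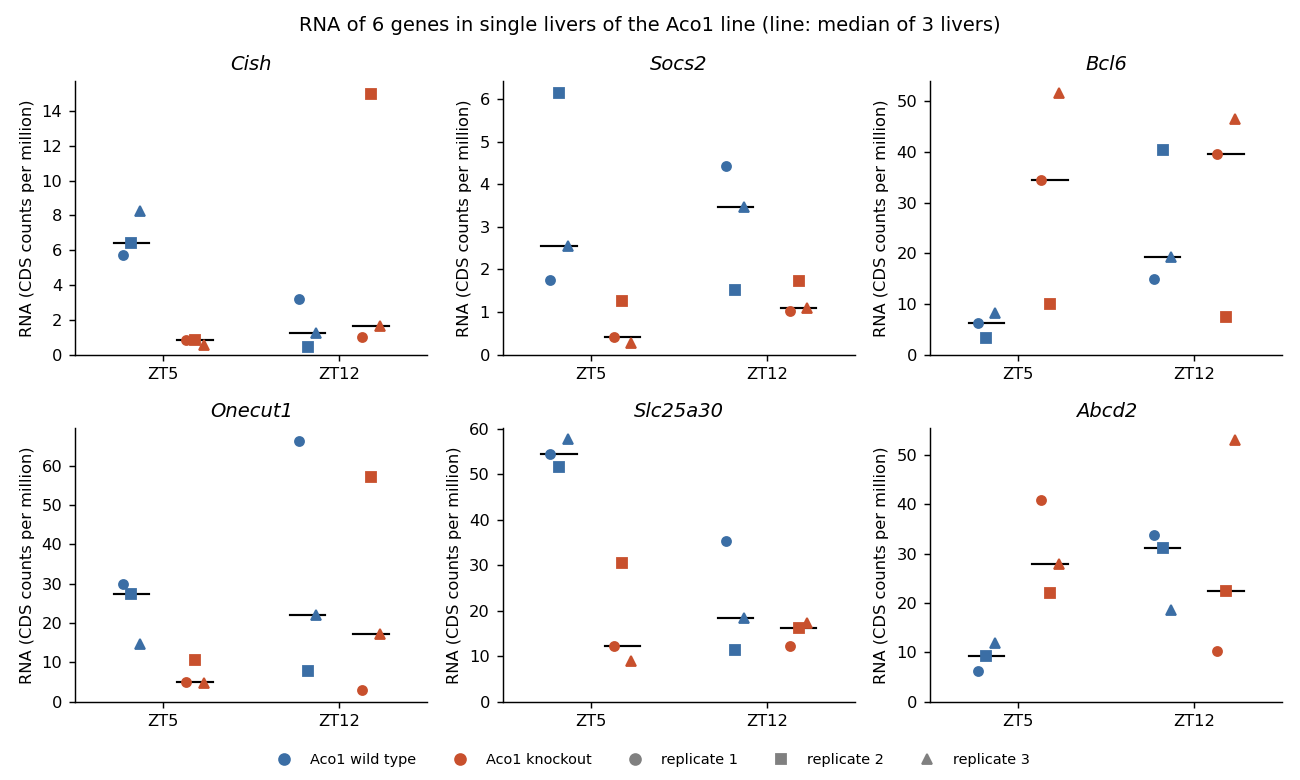
RNA (CPM of the CDS) of 6 genes in single livers of the Aco1 line at ZT5 and ZT12 (points, 3 livers a group, with the line at the group median). The genes were picked for their gap at ZT5, and at ZT12 Cish spans 1.02 to 15.0 CPM among the knockouts and Onecut1 spans 7.82 to 66.4 CPM among the wild types.

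Livers of the same genotype differed from each other along gene length. Per liver, the deviation of RPF from the mean of the 6 was fitted on log2 gene length (from the start to the end of the gene) over 10670 genes. The slopes were -0.02, -0.05 and 0.05 log2 CPM per doubling in wild types 1 to 3 and -0.04, -0.00 and 0.05 in the knockouts. The mean slopes were -0.0047 ± 0.0505 and 0.0047 ± 0.0456 (SD, n = 3, exact permutation p = 0.7). Both replicate 3 livers, one of each genotype, were relatively rich in footprints of long genes.

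In total RNA both replicate 3 livers again had the highest slopes, and wild-type replicate 2 again had the lowest. Wild-type replicate 1 had similar slopes in RPF (-0.0196) and RNA (-0.0223). Knockout replicate 1 went from -0.0381 in RPF to 0.000348 in RNA, and knockout replicate 2 from -0.000434 to -0.0171. RNA slopes were -0.02, -0.03 and 0.03 in the wild types and 0.00, -0.02 and 0.03 in the knockouts (exact permutation p = 0.5). In the first of 5 bins of genes by length, with a median length of 4.84 kb, the median RPF deviation was 0.08, 0.18 and -0.21 in the wild types and 0.16, 0.01 and -0.18 in the knockouts. In the last bin, with a median of 119 kb, it was -0.02, -0.08 and 0.09 against -0.04, 0.02 and 0.10. At ZT12 the RPF slopes of the line stayed between -0.0317 and 0.0228, and ZT5 slopes of TE lay between -0.0384 and 0.0178.

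**Figure D5:**
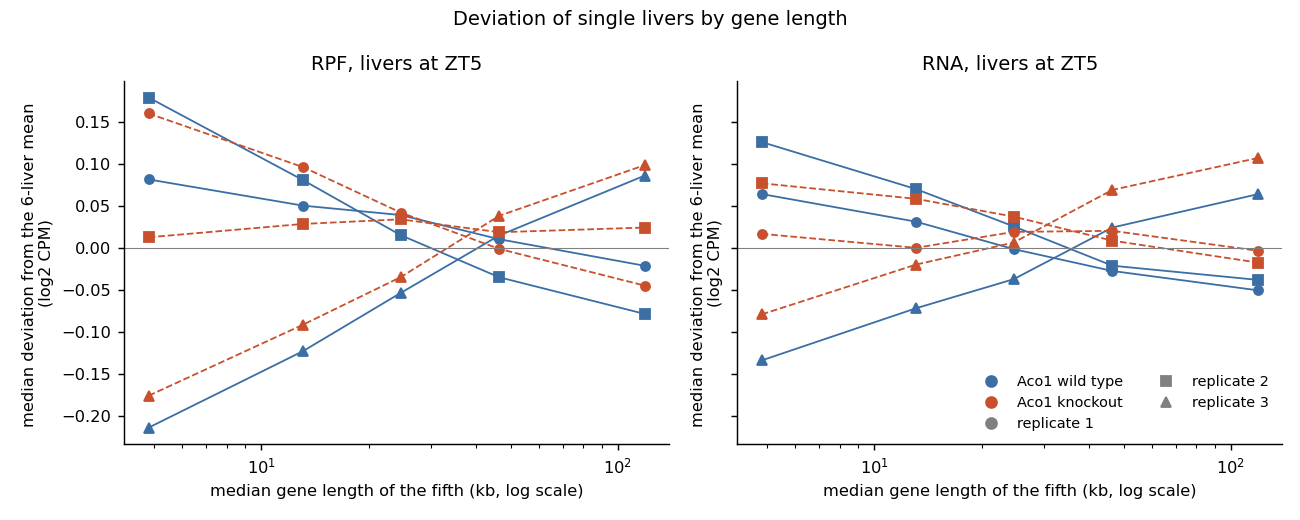
Median deviation of each liver from the mean of the 6 livers at ZT5 (log2 CPM) against the median gene length of each of 5 bins of genes (kb, log axis), for RPF and RNA. In the bin of shortest genes both replicate 3 livers lie lowest in RPF, at -0.21 and -0.18, and in the bin of longest genes they lie highest, at 0.09 and 0.10.

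The first principal component of RPF, with 39.4% of the variance, placed wild-type replicate 3 at 40.4 and knockout replicate 3 at 19.0, and the other 4 livers between -18.4 and -11.3. Its gene loadings had a Spearman correlation of 0.343 with gene length, across genes, which are not independent. Egr1, an immediate-early gene, loaded highest, with RNA of 3.95, 3.47 and 91.3 CPM in the wild types and 5.04, 2.30 and 3.95 CPM in the knockouts, so wild-type replicate 3 stood alone. Cyp4a14, a fatty acid hydroxylase under PPARα, loaded lowest, with RPF of 352, 110.1 and 10.0 CPM against 416, 1565 and 72 CPM. Dbp, a clock output gene, was high in both replicate 3 livers, with RNA of 11, 9.06 and 26.6 CPM against 4.20, 10.9 and 43.7 CPM. The part of depth, of these genes and of the time of sampling in the length split was not tested.

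The same genotype contrast at ZT12 was the most like comparison in the series, with other livers. The knockout effect at ZT5 differed from that at ZT12 for no gene in RNA by edgeR (0%, with 628 genes at an unadjusted p below 0.05 and none in DESeq2). In RPF it also differed for none in edgeR (0%, with 590 genes at an unadjusted p below 0.05), while DESeq2 called 7. In TE it differed for 3 genes (0.028%), which were Mup12, mt-Co1 and mt-Nd5.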

How the data were processed

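Per the study's methods, the authors trimmed reads with cutadapt 3.5, removed rRNA and tRNA reads with Bowtie2 and mapped the rest with STAR 2.70f to mouse genome v38. The counting tool and its strand setting are not given in the sources used here. The deposited files hold raw counts per gene and sequencing run in columns without names, read as 5′ UTR, CDS and 3′ UTR from their values and from how the samples were described. A further column was not identified and entered only an alternative that summed all columns. Runs of a library were summed.

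CDS counts were scaled by upper quartiles, filtered with filterByExpr (minimum count 10) and tested with edgeR 4.0.16 (R 4.3.3, quasi-likelihood, Benjamini-Hochberg, threshold 0.05) on the 12 livers of the Aco1 line, which share 1 estimate of spread. TE was tested as the genotype by library-type term with liver as a term, and TE per liver is log2 of RPF over RNA CPM with 0.5 counts added. 5′ UTR footprints used the CDS scale. Replicates are separate mice. Single values were compared by exact permutation of the 6 livers, which cannot go below p = 0.1. Intervals are 95% and cover the fitted spread.

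Named genes were list members, the 8 higher and 8 lower genes of smallest p whose groups did not overlap (without predicted and Mup genes), the genes of extreme loading on the first components, and all genes called. A part on counts per coding length was not run, since no coding lengths were at hand, and gene span from RefSeq (99.8% of tested genes) replaced coding length in the slopes. Members and lists were chosen with earlier results of these data known, and Cish, Onecut1 and Mup21 after their values were seen. The scripts were tested on simulated data. DESeq2 1.42.0, limma 3.58.1, TMM, no filter, a minimum count of 50, first runs alone, removal of the length trend, replicate blocks and the omission of livers were alternatives. Single values of some list members are not reported here.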

Additional observations from a re-analysis of the deposited data

Results flagged for a closer look

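The knockout effect on TE differed between ZT5 and ZT12 for 3 genes by the interaction term of the edgeR model, adjusted over all genes. The calls depended on the model, since none of the 3 passed with limma on TE per mouse or with the libraries of a liver unpaired, and only Mup12 passed without ZT5 wild-type replicate 1 or without both ZT5 replicate 3 livers. Of 24 alternatives, Mup12 passed in 21, mt-Co1 in 20 and mt-Nd5 in 14. For Mup12 the effect at ZT5 exceeded that at ZT12 by 2.47 (log2, adjusted p = 0.000384). Its TE was 2.11, 2.18 and 1.64 in the wild types and 2.78, 2.57 and 2.01 in the knockouts at ZT5, and 2.41, 2.24 and 2.15 against -0.35, 0.31 and 0.83 at ZT12. Mup12 is one of a family of near-identical urinary protein genes, so its counts are uncertain.

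For mt-Co1, a subunit of cytochrome oxidase, the difference between the effects was -1.10 (adjusted p = 0.00462). mt-Co1 TE was -2.80, -2.89 and -3.02 against -3.19, -2.95 and -3.40 at ZT5, and -3.53, -3.55 and -3.69 against -3.07, -2.79 and -2.44 at ZT12. For mt-Nd5, a subunit of complex I, it was -0.89 (adjusted p = 0.0179). mt-Nd5 TE was -3.25, -3.36 and -3.31 against -3.60, -3.27 and -3.68 at ZT5, and -3.58, -3.70 and -3.83 against -3.14, -2.90 and -3.04 at ZT12. For both mitochondrial genes every wild type at ZT5 was above every wild type at ZT12, and most knockouts at ZT5 were below those at ZT12.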

How the results depend on the processing

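Aco1 passed in RPF in all 22 alternatives and in TE in all 25, and in RNA in 6 of 23. Over the fold changes printed for named genes, apart from the difference of Hamp RPF between ZT5 and ZT12, which was not recomputed, no alternative turned a direction, and 17 calls were lost and 27 gained. The TE differences of Tfrc and Slc11a2, for which intervals are given, were both below 0 with all livers, and 1 of the 2 was above 0 without knockout replicate 1 or 3 or wild-type replicate 3. List medians were recomputed without knockout replicate 1, knockout replicate 3 or wild-type replicate 3 of ZT5, and without both replicate 3 livers. They were not recomputed without the other livers. In these omissions the medians near 0, of the predicted IRE-like, iron transport, citrate cycle and plasma protein genes, changed sign in at least 1 measure. They stayed between -0.08 and 0.15.

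In RNA the count of genes called was 1 with DESeq2, 2 with the first run alone, 8 with only the 6 livers at ZT5, 1 with the length trend removed and 2 with the replicate block and length trend removed, and it ran from 0 to 3 when single livers were left out (3 without ZT12 knockout replicate 1, and at least 1 without each other knockout at either time). In RPF it was 3 with DESeq2 and 2 with only the 6 livers, and 1 to 2 without single livers (2 without ZT5 knockout replicate 2 or 3). In TE it was 2 with limma, and in the 5′ UTR 1 with no filter. For the difference between ZT5 and ZT12, the RNA count ran from 0 to 4 without single livers. The RPF count was 1 with TMM, 7 with DESeq2, 2 with no filter, 2 with the first run alone, 1 with the length trend removed and 5 without both replicate 3 livers (an alternative chosen after seeing the data), and 0 to 10 without single livers. The TE count was 5 with the first run alone, 0 with unpaired libraries, 0 with limma and 1 without both replicate 3 livers, and 1 to 15 without single livers. The TE count was 1 without ZT5 wild-type replicate 1, and the highest counts, 10 and 15, came without ZT12 knockout replicate 3.

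The RPF slope on gene length, knockout minus wild type, turned to -0.0113 without wild-type replicate 2 and to -0.0146 without knockout replicate 3, and ran up to 0.0376 without wild-type replicate 3. The RNA slope turned to -1.74e-05 and -0.00233 and ran up to 0.0323 in the same omissions. The cause of these shifts was not tested.

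Replicate numbers were not used to pair the livers in the main fit. Correlations of same-numbered livers were 0.0598, 0.0838 and 0.165 in RNA and 0.202, 0.0422 and 0.323 in RPF. Those of the other pairs ran from -0.12 to 0.0599 in RNA and from -0.29 to 0.212 in RPF. The replicate 3 livers correlated best with each other in both assays, whereas in RPF wild-type replicate 2 correlated best with knockout replicate 1 (0.212). With the replicate block the counts were 0 in RNA, 1 in RPF and 1 in TE at ZT5, and 17 in RPF and 6 in TE for the difference from ZT12, or 16 and 6 with the length trend also removed. The median standard error was 0.464 in the 5′ UTR, and with a minimum count of 50 the counts of genes called stayed at 0 in RNA, 1 in RPF, 1 in TE and 0 in the 5′ UTR.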
